A study of Mus musculus with 9 samples.

Results

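Taar6 and Taar7a are the neighbouring receptor genes on either side of TAAR enhancer 2, a regulatory element in the trace amine-associated receptor (Taar) gene cluster of the mouse. Both genes were followed across mice that carried 2, 1 or 0 intact copies of the element. They were chosen by their position beside the element, with earlier results of these data known, and are 2 of the 24421 genes in the count data. Expression was measured by RNA sequencing of the whole main olfactory epithelium (MOE), the nasal tissue in which olfactory sensory neurons (OSNs) detect odours. The mice were labelled as strain C57BL/6 at postnatal day 14, and 3 libraries were made from each of 3 genotypes: wild type (WT), heterozygous for the deletion (TAAR enhancer 2 +/-, het) and homozygous for it (TAAR enhancer 2 -/-, homo). The study methods describe WT, het and homo littermates from a single line made by CRISPR-Cas9 editing of C57BL/6J zygotes, the use of both sexes and, for the mouse lines of the study in general, a mixed background of C57BL/6J and 129, and the labels give neither litter nor sex. All groups shared the labelled strain, the age and the tissue, and differed by the deletion alone as far as the labels say. The coordinates of the deleted sequence were not used here.

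TAARs are G protein-coupled receptors that detect amines, and in the nose each OSN expresses a single receptor gene out of a large repertoire made up mainly of odorant receptor genes and a small set of Taar genes. Enhancers of such clusters raise the chance that a gene of the cluster is the one chosen. The level of a receptor gene in whole MOE is therefore a product of how many neurons express it and how much RNA each neuron holds, and in these bulk libraries fewer cells and less RNA per cell cannot be told apart.

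Taar6 (ENSMUSG00000045111) lies on chromosome 10 of build GRCm38 (mm10) from 23984609 to 23985646, and Taar7a (ENSMUSG00000095647) from 23992405 to 23993481. Both are on the minus strand, both are annotated by GENCODE as 1 protein-coding exon, and the gene models hold a coding length of 1038 bases for Taar6 and 1077 bases for Taar7a. The interval between them runs from 23985647 to 23992404, a length of 6.76 kb with no gene in it. Because of the shared strand, the interval sits upstream of Taar6 and downstream of Taar7a. The annotated start of Taar6 borders the interval, whereas that of Taar7a lies 1.08 kb beyond its far edge, on the other side of the Taar7a coding sequence.

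The sequences around both starts are shown because they hold the start of each gene, one bordering the interval and one away from it. They are taken from RefSeq (GRCm38.p6), read on the minus strand, and cover 250 bases before and 50 bases after the annotated start, at chr10:23985597-23985896 for Taar6 and chr10:23993432-23993731 for Taar7a. Capitals mark the first 50 coding bases, which match the GENCODE transcripts base for base.
Taar6: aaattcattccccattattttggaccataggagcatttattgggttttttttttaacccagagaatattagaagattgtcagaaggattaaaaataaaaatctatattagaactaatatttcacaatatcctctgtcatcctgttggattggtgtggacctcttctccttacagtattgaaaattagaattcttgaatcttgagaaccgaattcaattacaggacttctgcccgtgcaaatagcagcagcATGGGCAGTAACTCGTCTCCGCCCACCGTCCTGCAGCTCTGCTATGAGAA
Taar7a: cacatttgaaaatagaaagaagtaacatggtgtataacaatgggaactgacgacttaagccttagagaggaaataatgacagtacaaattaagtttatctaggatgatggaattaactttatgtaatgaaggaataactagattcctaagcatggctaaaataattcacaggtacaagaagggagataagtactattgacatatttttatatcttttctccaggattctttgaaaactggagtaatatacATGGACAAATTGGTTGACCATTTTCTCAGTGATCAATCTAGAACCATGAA
The gene models begin at the start codon, so any exon further upstream is not covered by these windows. The 250 bases before the start codon of Taar6 lie wholly inside the interval, and those of Taar7a lie wholly outside it. The 2 upstream stretches aligned at 54.1% identity over 231 aligned bases, with no shared run longer than 8 bases. Against the 4 other Taar7 genes the upstream stretch of Taar7a was 56.0% to 62.4% identical. Motifs were searched on both strands. TATAAA, the TATA box, was present once in the Taar7a window, from position 206 on the strand opposite to the gene, and not in the Taar6 window, and 13.6% of 32817 mouse windows of the same length hold it. It was in 6 of the 11 Taar windows matched (Taar2, Taar5, Taar7a, Taar7b, Taar7f and Taar8b). TAATTA, a core bound by homeodomain factors such as LHX2, was in neither window, and 5.3% of all windows hold it.

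The coding sequences of both genes were 73.5% identical over 1028 aligned bases. Taar6 had no close copy, since 988 of its 989 windows of 50 bases occurred in no other annotated mouse gene. Taar7a belongs to a group of 5 intact Taar7 genes of equal coding length, and it was 91.7% identical to Taar7f, 93.1% to Taar7b, 93.3% to Taar7e and 93.5% to Taar7d. Of its 50-base windows 61.4% occurred in no other gene, and of its 100-base windows 90.4%. The differences to the other Taar7 genes are concentrated at the start of the coding sequence, which is shown as the stretch of 60 bases in which Taar7a differs most from its relatives. Capitals mark the bases that differ from Taar7a.
Taar7a: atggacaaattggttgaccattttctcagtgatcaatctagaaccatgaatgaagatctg
Taar7b: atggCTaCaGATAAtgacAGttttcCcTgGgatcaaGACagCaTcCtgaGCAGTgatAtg
Taar7d: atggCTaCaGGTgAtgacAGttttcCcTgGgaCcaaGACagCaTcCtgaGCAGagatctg
Taar7e: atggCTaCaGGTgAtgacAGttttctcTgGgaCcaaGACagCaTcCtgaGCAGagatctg
Taar7f: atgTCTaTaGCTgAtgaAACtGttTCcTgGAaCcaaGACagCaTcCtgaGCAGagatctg
In these 60 bases Taar7a differs from the others at 22 to 28 positions, and over all 1077 bases at 70 to 89. The longest run shared without a difference is the opposite case, 182 bases that Taar7a and Taar7b have in common from coding position 832 to 1013, and a read that falls wholly inside it cannot be told apart between both genes.
Taar7a and Taar7b: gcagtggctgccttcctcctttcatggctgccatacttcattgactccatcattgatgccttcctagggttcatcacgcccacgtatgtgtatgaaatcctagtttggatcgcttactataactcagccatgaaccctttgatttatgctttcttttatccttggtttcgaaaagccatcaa
Whether reads that match several genes were kept in the counting is not given in the sources used here, so Taar7a counts carry an uncertainty that Taar6 counts do not.

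Library totals ranged from 20527992 to 32262005 counts. All 8 markers of mature OSNs, among them Omp and the signalling genes Gnal, Adcy3 and Cnga2, were detected, and their summed level was 6640 to 6896 CPM (counts scaled to a common depth by TMM) across WT libraries, 6541 to 7084 across het and 6815 to 7537 across homo. Summed markers of immature neurons (6 of 6 detected), basal and progenitor cells (6 of 6), sustentacular cells (5 of 5) and motile ciliated cells (4 of 4) overlapped between the genotypes. Of 3 blood markers, Alas2 was detected, with 14.7 to 23.4 CPM in WT, 20.8 to 27.6 in het and 24.0 to 25.9 in homo, and Hba-a1 and Hbb-bs were listed at 0 in all libraries. WT and homo libraries did not overlap in Alas2, and its part in the results was not tested. The 3 libraries with replicate number 1 deviated together. Their deviations from the genotype mean over 17079 genes correlated with each other by 0.506 to 0.749. With those of other numbers they correlated by −0.675 to −0.021. Deviations cancel within a genotype, so these negative values follow in part from the positive ones and are no separate result. Values with and without replicate number 1 are therefore given below.

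Taar6 had the highest level per length of the 14 olfactory Taar genes in WT. Its raw counts were 134, 214 and 170 in WT replicates 1, 2 and 3, which came to 6.57, 6.62 and 6.27 CPM. The het libraries had 96, 117 and 132 counts, or 4.54, 4.42 and 5.23 CPM, and the homo libraries 14, 17 and 20 counts, or 0.635, 0.610 and 0.743 CPM. Each genotype formed a group of its own, with every homo library below every het library and every het library below every WT library. The WT mean was 6.49 ± 0.192 CPM, the het mean 4.73 ± 0.436 and the homo mean 0.663 ± 0.0711 (SD, n = 3 each), so that het stood at 72.9% of WT and homo at 10.2%. The spread between WT libraries was 2.96% of the mean, below the 7.75% that counting alone would give.

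Taar7a had about 2 times fewer counts than Taar6 in WT and reached a similar residual level in homo. Its raw counts were 63, 129 and 81 in WT, corresponding to 3.09, 3.99 and 2.99 CPM. In het they were 52, 101 and 81, or 2.46, 3.82 and 3.21 CPM, and in homo 14, 20 and 17, or 0.635, 0.717 and 0.632 CPM. The homo libraries were all below the others, whereas WT and het libraries were interleaved, with het replicate 1 the lowest of the 6 and WT replicate 2 the highest. The WT mean was 3.35 ± 0.552 CPM, the het mean 3.16 ± 0.679 and the homo mean 0.661 ± 0.0486, which placed het at 94.2% and homo at 19.7% of WT. The spread between libraries was 16.4% of the mean in WT and 21.5% in het, above the 11.0% and 11.8% of counting alone.

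**Figure D1:**
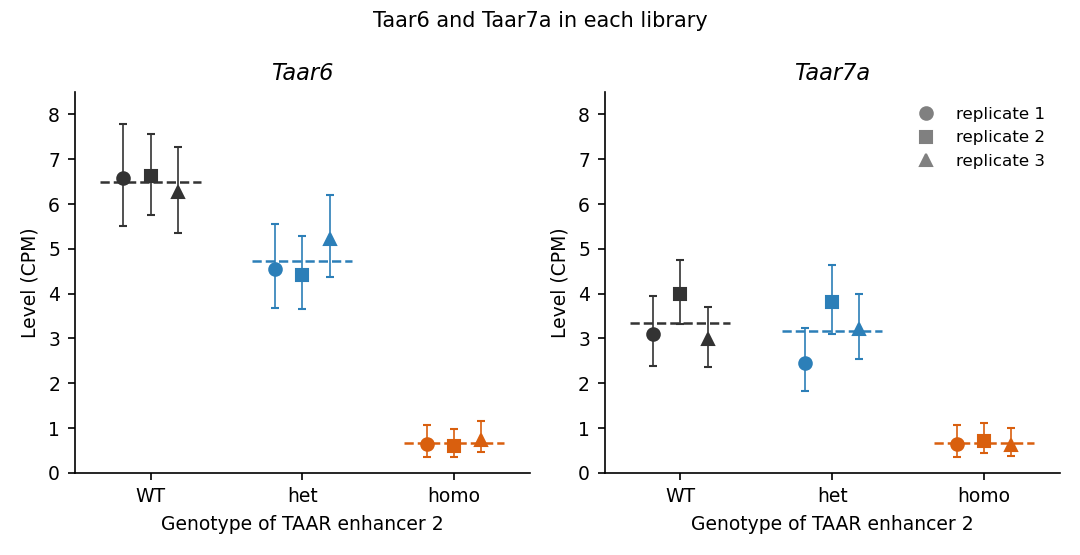
Level of Taar6 (left) and Taar7a (right) in CPM for each of the 9 libraries, by genotype, with the replicate number as symbol shape, the group mean as a dashed line and bars for the 95% Poisson interval of each library, which covers counting error only. The Taar6 groups are separate, from 6.27 to 6.62 CPM in WT, 4.42 to 5.23 in het and 0.610 to 0.743 in homo, while the Taar7a libraries of WT (2.99 to 3.99) and het (2.46 to 3.82) overlap.

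Some reads were still assigned to both genes without the element. The homo libraries together held 51 reads of Taar6 and 51 reads of Taar7a, a pooled level of 0.664 CPM for each (95% Poisson interval 0.494 to 0.873, which covers counting error alone, as PCR copies of a molecule were not told apart). Every homo library exceeded the floor of 3 counts for both genes. Taar7b, which shares the longest run with Taar7a, held 85 to 154 counts per homo library. Whether part of the Taar7a reads came from other Taar7 genes was not tested, and the Poisson interval does not cover it. Scaled by coding length, Taar6 went from 6.25 ± 0.185 CPM per kb in WT through 4.56 ± 0.42 in het to 0.638 ± 0.0685 in homo, and Taar7a from 3.11 ± 0.512 through 2.94 ± 0.63 to 0.614 ± 0.0451. Among the 14 olfactory Taar genes, Taar6 ranked first in WT, ahead of Taar7b with 4.46 ± 1.2 CPM per kb, behind Taar7d in het and at place 7 in homo. Taar7a ranked at place 5, 6 and 8.

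Of the reads assigned to the 14 olfactory Taar genes, Taar6 made up 16.3 ± 2.52% in WT libraries, 13.5 ± 0.815% in het and 3.28 ± 0.513% in homo, and Taar7a made up 8.39 ± 1.53%, 8.97 ± 1.67% and 3.26 ± 0.309% (SD, n = 3). The precision of 1 library is shown by WT replicate 1, where the 95% Wilson interval of the Taar6 share ran from 16.3% to 22.0%. Both genes together made up between 20.7% and 27.9% of these reads in WT, between 21.9% and 23.4% in het and between 5.85% and 7.22% in homo, and no homo library overlapped the rest. Against the reads of the 1125 odorant receptor (Olfr) genes, which most other OSNs express, Taar6 had 1.84 ± 0.131 reads per 1000 Olfr reads in WT libraries, 1.23 ± 0.0826 in het and 0.166 ± 0.0241 in homo. Taar7a had 0.946 ± 0.0829, 0.818 ± 0.146 and 0.165 ± 0.0144. On this scale too, homo libraries of both genes lay apart from the rest. How many of all genes do so was not computed for the Olfr scale or for the share of Taar reads. In CPM, 2.71% of all genes tested had every homo library below every WT library.

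The loss of both copies was tested by comparing homo with WT. In the edgeR quasi-likelihood fit over 19775 genes, Taar6 fell by 3.28 on the log2 scale (SE 0.18, 95% interval −3.69 to −2.87), to 10.3% of WT, with an adjusted p (edgeR, Benjamini-Hochberg) of 3.22e-04, the smallest of all genes tested. Taar7a fell by 2.33 (SE 0.25, 95% interval −2.89 to −1.78), to 19.8% of WT, with an adjusted p of 0.0233 (edgeR), which ranked at place 4. Both genes were thus among the 4 genes called, at an adjusted p under 0.05 and a fold change over 1.5, and 0.0202% of all genes tested passed. Both also had every homo library below every WT library, as did 2.71% of all genes.

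The call of Taar6 held in all 19 alternative fits, with log2 fold changes between −3.37 and −3.23. That of Taar7a depended on the fit although its size hardly moved, with log2 fold changes between −2.42 and −2.19. It was lost under limma-voom (adjusted p 0.120), in a fit of WT and homo alone (edgeR adjusted p 0.150), and when any 1 library other than het replicate 1 was left out (edgeR adjusted p 0.0604 to 0.281).

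The loss of 1 copy was tested by comparing het with WT, and 0 genes were called (0.0% of those tested, by edgeR, DESeq2 and limma-voom alike, with 253 genes at an unadjusted edgeR p under 0.05). Taar6 had a log2 fold change of −0.45 (SE 0.16, 95% interval −0.81 to −0.096), or 73.0% of WT, with an unadjusted edgeR p of 0.0185 and an adjusted p of 1.0. Every het library of Taar6 was below every WT library, as was the case for 1.95% of all genes tested. For Taar7a the value was −0.086 (SE 0.22, 95% interval −0.59 to 0.42), or 94.2% of WT, with an unadjusted edgeR p of 0.711. Its interval reached from 66.4% to 134% of WT and so holds the level of Taar6 in het as well as no change. The sign of the Taar7a value turned without WT replicate 2 (0.063) or without het replicate 1 (0.064).

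The loss of the second copy was tested by comparing homo with het. Taar6 fell by 2.83 (SE 0.18, 95% interval −3.24 to −2.41) with an edgeR adjusted p of 0.00118, and was the 1 gene called (0.00506% of genes tested). Taar7a had a log2 fold change of −2.25 (SE 0.25, 95% interval −2.81 to −1.69), and its edgeR adjusted p of 0.0553 did not pass. It passed with the replicate number as a block (adjusted p 0.0233) and under 4 other alternatives. Every homo library was below every het library for both genes, compared with 1.81% of all genes.

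**Figure D2:**
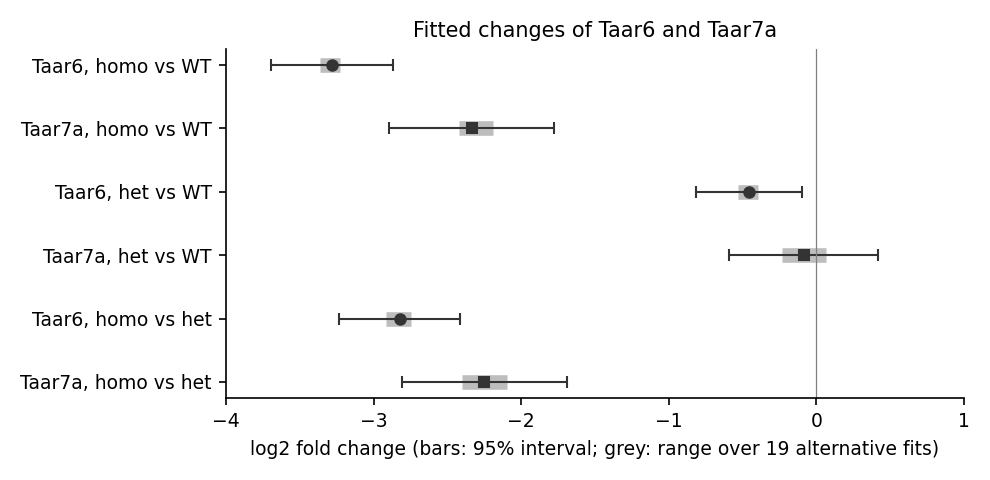
Fitted log2 fold changes of Taar6 (circles) and Taar7a (squares) in the 3 comparisons, with bars for the 95% interval and a grey band for the range over 19 alternative fits. All values of the comparisons with homo lie at or below −1.69 including their intervals, and the Taar7a value of het against WT is the 1 whose interval includes 0.

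Levels were also compared with the number of intact copies as an ordered trend. The exact Jonckheere-Terpstra p, from the 1680 ways to assign 9 libraries to 3 genotypes, was 0.00119 for Taar6, the smallest that this design allows, and 0.00238 after Benjamini-Hochberg adjustment over the 2 genes. For Taar7a the exact p was 0.0417, and 0.0417 after adjustment. As its WT and het libraries were interleaved, this value rests almost wholly on the low homo libraries. It does not show a step from 2 copies to 1. The complete order homo below het below WT, met by Taar6 and not by Taar7a, was met by 7 genes or 0.0354% of those tested. The part of the WT to homo difference that was retained in het was 69.8% (SE 4.53 percentage points, delta method) for Taar6 and 92.8% (SE 18.2) for Taar7a. The trend test of Taar7a had an exact p of 0.114 when WT replicate 2, het replicate 1 or any 1 homo library was left out.

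Libraries inside and outside replicate number 1 are set side by side. In number 1 alone, with 1 library per genotype, Taar6 was at 69.1% of WT in het and 9.66% in homo, and Taar7a at 79.6% and 20.5%. In numbers 2 and 3 Taar6 was at 74.9% and 10.5%, and Taar7a at 101% and 19.3%.

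Whether both neighbours responded alike was read from the ratio of Taar7a to Taar6 counts within a library, in which depth and scaling cancel. The ratio was 0.470, 0.603 and 0.476 in WT, 0.542, 0.863 and 0.614 in het, and 1.0, 1.18 and 0.850 in homo. Homo libraries were above all WT libraries, and het libraries lay between with an overlap on both sides. The mean log2 ratio rose from −0.96 (SD 0.20) in WT through −0.60 (SD 0.35) in het to 0.00 (SD 0.23) in homo, a difference of 0.96 (SE 0.18) between homo and WT. An exact permutation test over the 3 genotypes gave p = 0.0179, or 0.0357 after Benjamini-Hochberg adjustment over 5 ratios. By these counts Taar6 lost a larger part of its level than Taar7a. With genotypes permuted only within a replicate number, the adjusted exact p of this ratio was 0.0694. The unadjusted p was there the smallest that this permutation allows. How many Taar7a counts came from stretches shared with the other Taar7 genes was not tested. Pairs of genotypes cannot pass on their own, since 3 against 3 libraries give an exact p of 0.1 at best, which homo against WT reached, and het against WT had 0.2.

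Taar7a was set against the other Taar7 genes, its closest relatives in sequence, in the same way. In WT the 5 Taar7 genes were of similar abundance, with mean count ratios of Taar7a to Taar7b, Taar7d, Taar7e and Taar7f of 0.712, 0.741, 0.773 and 1.15. In homo these ratios were 0.134, 0.138, 0.186 and 0.469. The ratio to Taar7b, the next gene along the chromosome, was 0.926, 0.754 and 0.516 in WT, 0.642, 0.815 and 0.563 in het, and 0.165, 0.130 and 0.113 in homo. For each of the 4 ratios every homo library was below every WT and every het library, while WT and het overlapped. All 4 ratios share the Taar7a counts and so are not separate results, and no share over other gene pairs was computed. The values of the relatives in homo against WT were not all near 0, although none of them was called. Taar7f had a log2 fold change of −1.17 (SE 0.35), beside 0.051 for Taar7b, 0.10 for Taar7d and −0.31 for Taar7e. The WT libraries of Taar7f spread widely, from 32 to 119 counts. The mean log2 ratio differed between homo and WT by −2.41 (SE 0.29) for Taar7b, −2.43 (SE 0.24) for Taar7d, −2.06 (SE 0.22) for Taar7e and −1.29 (SE 0.45) for Taar7f. Exact permutation p-values over the 3 genotypes were 0.0286, 0.0107, 0.0357 and 0.0357, each 0.0357 after adjustment over the 5 ratios. How many of these counts came from stretches that the Taar7 genes share was not tested.

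**Figure D3:**
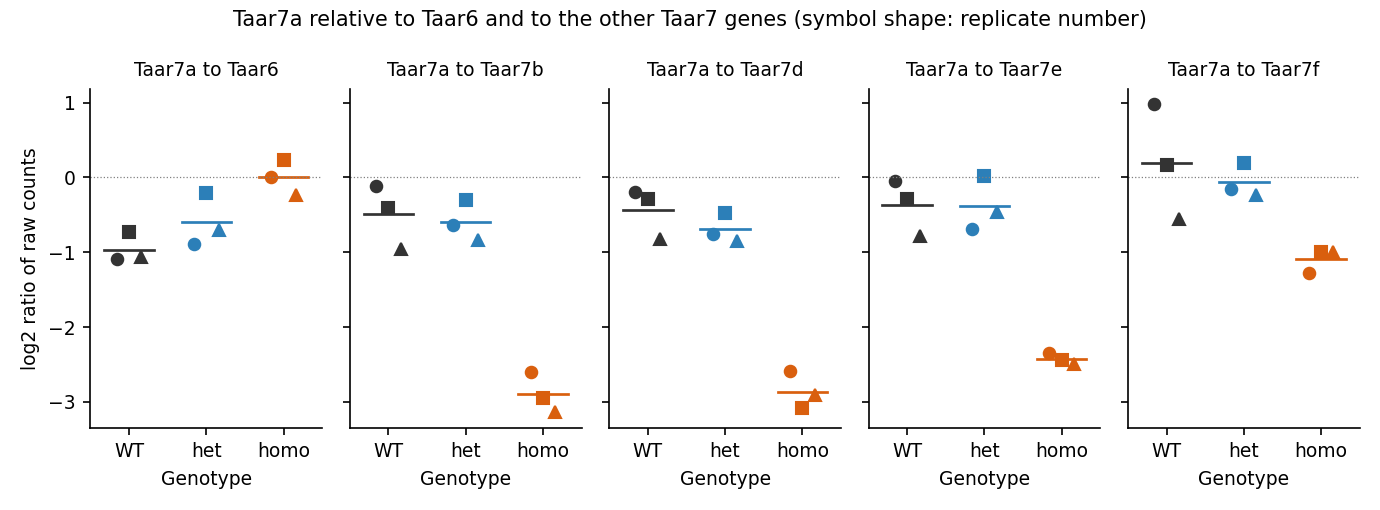
Log2 ratio of the raw counts of Taar7a to those of Taar6 and of the 4 other Taar7 genes in each of the 9 libraries, by genotype, with the replicate number as symbol shape and the group mean as a line. The ratio to Taar6 rises from a mean of −0.96 in WT to 0.00 in homo, and the ratios to Taar7b, Taar7d, Taar7e and Taar7f fall to means between −2.90 and −1.09.

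The adjusted p-values of these ratios depended on few libraries. Genotypes were also permuted only within a replicate number (the replicate block). The exact p was then 0.0278 for the ratios to Taar6 and Taar7d, the smallest that this permutation allows. It was 0.111 for those to Taar7b, Taar7e and Taar7f. After adjustment the values were 0.0694 and 0.111. Leaving out 1 homo library brought the adjusted value of each of the 5 ratios to between 0.0536 and 0.107. The unadjusted exact permutation p stayed at 0.0286 for Taar7b, 0.0107 for Taar7d and 0.0357 for Taar7e, whichever homo library was left out. Their adjusted values rose because the ratios to Taar6 and Taar7f, adjusted together with them, had larger p-values. The adjusted value of the ratio to Taar7f also rose to 0.0786 without WT replicate 2, 0.0679 without het replicate 1 and 0.0607 without het replicate 3.

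Both genes are part of the list of 14 olfactory Taar genes, for which 4 were called in homo against WT, all lower. The median log2 fold change of the list was −2.37, against 0.0040 for all genes tested, and 12 of 14 had negative values, as had 9630 of all 19775 genes, of which 4 were called. Besides Taar6 and Taar7a the genes called were Taar3, with a bound of −3.74 when its homo libraries are set to the floor of 3 counts, and Taar9, with −3.39 (SE 0.34). With the replicate block Taar3 was not called and the other 3 were. In het against WT 12 of 14 were below 0 with a median of −0.36 and 0 calls, beside 10351 of all 19775 genes below 0 with a median of −0.0084 and 0 calls. The same WT libraries served as control in both comparisons. The values did not follow the distance along the chromosome. Counted from its centre, Taar6 starts at −3.38 kb and Taar7a at 4.46 kb, whereas Taar9 starts at 121 kb and fell by 3.39, and Taar7b, at 10.9 kb, had a log2 fold change of 0.051 (SE 0.26).

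**Figure D4:**
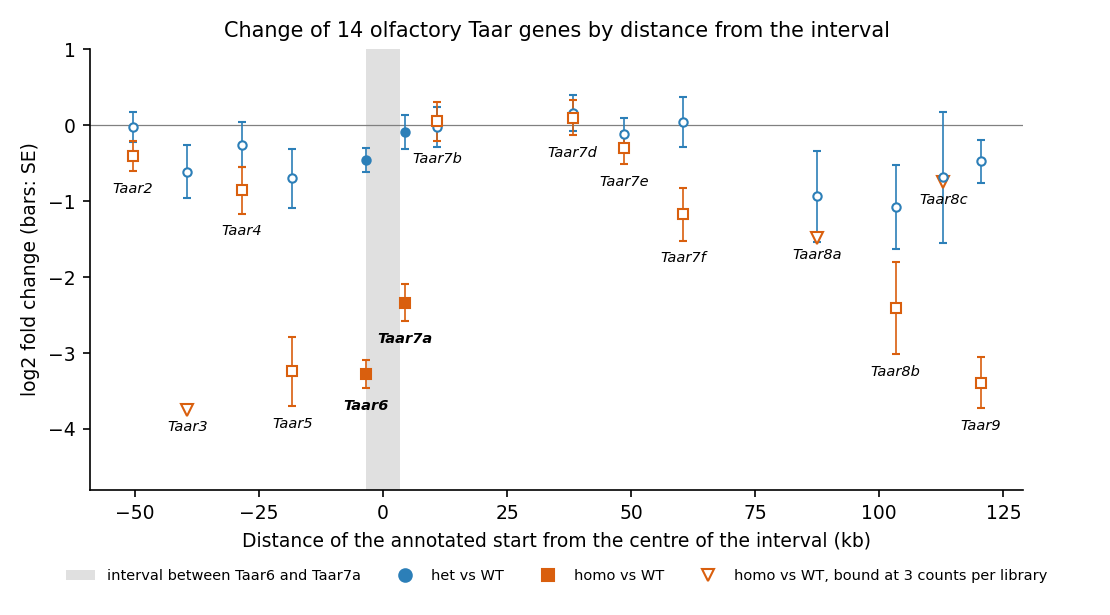
Log2 fold change of the 14 olfactory Taar genes against the distance in kb of their annotated start from the centre of the interval between Taar6 and Taar7a (grey), for het against WT (blue circles) and homo against WT (orange squares), with bars for the SE. Filled symbols are Taar6 and Taar7a, and open triangles are lower bounds of the fall for genes whose homo libraries hold at most 3 counts. Taar6 (−3.28) and Taar7a (−2.33) are low beside Taar7b (0.051), and Taar9, at 121 kb, has −3.39.

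The genes whose profiles over the 9 libraries were most like that of Taar6, by the root mean square difference of log2(CPM + 0.1) relative to the WT mean among 17079 genes, were Taar9 (0.231), Taar3 (0.368), Taar5 (0.433), Taar7a (0.617) and Taar8b (0.930). The 5 nearest genes were thus all of the same cluster, although the whole table was searched. For Taar7a the order was Taar9 (0.601), Taar6 (0.617), Slc13a4 (0.677), Taar5 (0.693) and B3galt5 (0.714). With 0.5 CPM added in place of 0.1, the nearest to Taar7a were Taar9, Taar5, Taar3, Taar8b and Taar6, and Slc13a4 and B3galt5 were no longer among the first 5. The measure is a description without a test, and the libraries share their depth and batch across genes.

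**Figure D5:**
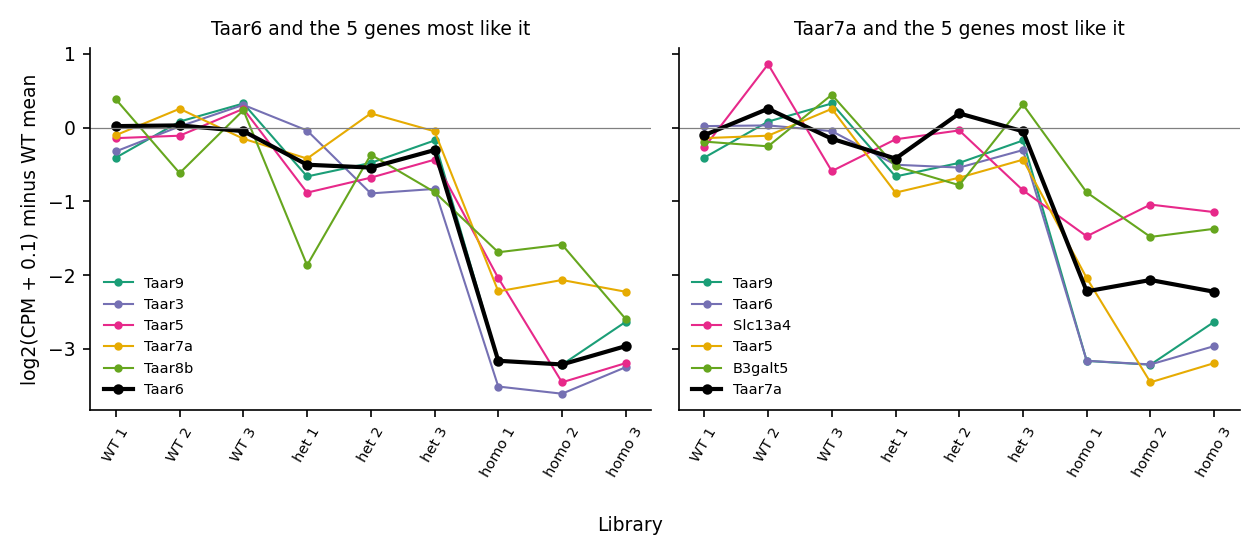
Profiles of Taar6 (left) and Taar7a (right), in black, and of the 5 genes most like each, as log2(CPM + 0.1) minus the WT mean in the 9 libraries, where lines only join the points of a gene. Taar9, Taar3 and Taar5 follow Taar6 down to between −2.04 and −3.61 in the homo libraries, and Taar7a stays between −2.07 and −2.23.

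Genes that work with olfactory receptors were examined as fixed lists beside Taar6 and Taar7a. Of 15 genes for olfactory signalling and receptor transport, such as the channel subunit Cnga2 and the receptor transporters Rtp1 and Rtp2, 0 were called in homo against WT by edgeR, with 0 at an unadjusted p under 0.05, and their log2 fold changes were between 0.0012 and 0.28 (median 0.081). Of all 19775 genes 4 were called and 682 had an unadjusted p under 0.05, so that counts of 0 in lists of this size do not set them apart from other genes. Of 7 factors that act at olfactory enhancers, among them Lhx2, Ldb1 and Ebf1, 0 were called, with a median of 0.071 and a range of 0.020 to 0.13. Of 8 genes of receptor choice, such as the demethylase Kdm1a, 0 were called, with values between −0.074 and 0.094. In het against WT and homo against het the counts were 0 for the same lists, and DESeq2 and limma-voom called none of these genes in any comparison. None of these genes differed by more than 0.28 between the homo and WT libraries in which Taar6 was at 10.3% and Taar7a at 19.8% of WT.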

How the data were processed

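Directional, polyA-selected libraries were prepared from total RNA of whole MOE, 3 per genotype. Per the labels, the authors trimmed reads with Trimmomatic 0.36, mapped them to mm10 with HISAT2 2.1.0 and deposited raw counts per gene from featureCounts (Subread 1.6.2). They also deposited normalized counts, a signal equal to the raw count divided by 1 DESeq2 1.20.0 size factor per library (checked: the ratio was constant within each library). The annotation release, strand option and treatment of multi-mapping reads are not given in the sources used here.

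Genes with at least 10 summed counts (19775) were tested with edgeR 4.0.16 in R 4.3.3 (TMM, quasi-likelihood, all 9 libraries in 1 fit, common dispersion 0.0545), and called at a Benjamini-Hochberg adjusted p under 0.05 and a fold change over 1.5. The edgeR p-values set the difference between genotypes against the spread between the 3 libraries of a genotype. That spread was estimated over all 9 libraries and moderated across genes. CPM uses TMM-scaled totals. Ratios and trends were tested by exact two-sided permutation. DESeq2 1.42.0 and limma 3.58.1 served as alternatives. Scripts were tested on simulated data. Sequences were aligned with Biopython, and 14 Taar genes were matched to GENCODE M21 and 11 of them, both genes included, to RefSeq start windows.

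Taar6 and Taar7a, the lists (olfactory Taar genes, olfactory signalling, enhancer factors, receptor choice and cell type markers) and the tests were chosen with earlier results of these data known. Named were Taar6, Taar7a, the olfactory Taar genes, the 5 genes most like each (at least 0.5 CPM on average) and listed genes. Replicate libraries differed by more than sampling noise (chi-square per degree of freedom 7.6 to 108). The labels leave the meaning of replicate numbers open, and pairing was checked over 17079 genes. Deviations of the same number correlated by 0.637, 0.417 and 0.583 between WT and het and by 0.749, 0.285 and 0.121 between het and homo, all over 0.1, and were taken as paired. Between WT and homo they were 0.506, 0.254 and −0.073, and were not. The pairing of numbers 2 and 3 between het and homo is uncertain. Different numbers correlated more there, by 0.485 (homo 2 with het 3) and 0.527 (homo 3 with het 2). The main tests used no pairing, and the replicate block served as an alternative.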

Additional observations from a re-analysis of the deposited data

How the results depend on the processing

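Of 312 recomputed values over 19 results, 232 kept their direction and side of the threshold or moved little. Taar6 kept its call in homo against WT and in homo against het under all 19 alternative fits. The Taar7a call in homo against WT was lost under limma-voom (−2.31) and in a fit of the 2 genotypes alone (−2.34), where 1 gene, Taar6, was called. Leaving out single libraries gave −2.42 to −2.19, with 1 to 4 genes and 1 to 2 of the pair called, both without het replicate 1 and Taar6 alone when another library was left out. In homo against het, Taar7a passed with library totals (−2.25, 4 genes called), no filter (−2.26, 4 genes), DESeq2 (−2.27, 5 genes), the replicate block (−2.24, 3 genes) and a batch term for replicate number 1 (−2.24, 3 genes), so that 2 of 2 were called there. The newer quasi-likelihood estimate called 2 genes. Taar7a in het against WT ranged from −0.23 to 0.064 when single libraries were left out, and turned positive without WT replicate 2 (0.063) or het replicate 1 (0.064).

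The ratio tests lost their adjusted p under 0.05 with the replicate block, where the differences between homo and WT are the same by construction, 0.96 to Taar6, −2.41 to Taar7b, −2.43 to Taar7d, −2.06 to Taar7e and −1.29 to Taar7f. Without single libraries or replicate number 1 they ranged from 0.85 to 1.08, −2.64 to −2.22, −2.62 to −2.31, −2.26 to −1.89 and −1.66 to −0.81. Without replicate number 1, with 2 libraries per genotype, the adjusted exact permutation p was 0.133 for every ratio. With so few libraries no exact p of this test can fall under 0.05, so this setting cannot decide whether the calls hold. The Taar7a trend p ranged from 0.0286 to 0.114 over left-out libraries. The causes were not tested. In homo against WT the replicate block called 3 genes, without Taar3, and in homo against het it added Taar7a and Taar9. It changed no call of Taar6 and no other call of Taar7a in the genotype comparisons or trends. With 14 to 20 counts per homo library, counting alone gives a spread of 24.5% in the homo level of both genes, and Taar7a het values below 66.4% or above 134% of WT lie outside its 95% interval.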
